A study of Mus musculus with 16 samples.

Results

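The genes that encode the proteins of the cytosolic and the mitochondrial ribosome were followed in the epididymal fat of mice on 4 regimens. They were chosen by gene symbol: Rpl or Rps with a number, the stalk genes Rplp0 to Rplp2 and Rpsa for the cytosolic set, and Mrpl or Mrps with a number for the mitochondrial set. The symbols gave 164 genes of the 27150 in the mRNA table, 83 cytosolic (51 of the large and 32 of the small subunit) and 81 mitochondrial (51 and 30). The tissue, white fat from along the epididymis, came from male C57BL/6 mice that were 6 weeks old and about 22 g when bought. Per the labels, 4 libraries each came from mice on a normal diet, on a high-fat diet (HFD, 60% fat, fed for 8 weeks before treatment), on HFD with metformin (an antidiabetic biguanide) and on HFD with resveratrol (a plant polyphenol), each agent given for 6 weeks. Doses, and whether HFD went on during treatment, were not given in the sources used here. Whether each library is 1 animal is not in the labels, so a p-value here speaks only of the spread among libraries.

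The cytosolic ribosome translates nearly all cellular mRNAs, and its proteins are made in fixed proportion, from mRNAs that typically begin with a C followed by an unbroken run of pyrimidines, the 5′ terminal oligopyrimidine (TOP) motif. This motif places their translation under the control of mTORC1, the kinase complex that senses insulin and amino acids. The mitochondrial ribosome translates the few mRNAs of the mitochondrial genome, all for subunits of oxidative phosphorylation. Its proteins are coded in the nucleus, under factors such as NRF1, the ETS factor GABPA and the coactivator PGC-1α, and are imported.

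Several libraries stood apart before any comparison. In resveratrol 4, Crisp1, which encodes a secreted protein of the epididymal epithelium, stood at 12131 CPM (counts scaled to the library's total mRNA count). Its 10 adipocyte markers summed to 1360 CPM against 21368 to 41574 in the other 15 libraries. Resveratrol 4 was left out of every test except the fit said to use all 16 libraries. Markers of motile ciliated epithelium summed to 373 to 911 CPM in 5 libraries (3 with metformin, normal diet 2 and resveratrol 2), and to at most 62.9 elsewhere. Markers of spermatogenic cells summed to 2138 CPM in metformin 2. Markers of macrophages, which enter fat in obesity, summed to 3478 to 4050 CPM in HFD 1 to 3 but to 1276 in the remaining HFD library and to 882 to 1716 in the other 11 libraries tested. That HFD library and 1 metformin library carried a code that matches no sample title, only the prefix of the group. They are named HFD unmatched and metformin unmatched below. The protocol text also speaks of retina and skeletal muscle, but in the 15 libraries retina markers summed to at most 8.58 CPM, skeletal muscle markers to 18.2 to 144 CPM, and adipocyte markers to the values above. In every metformin library Crisp1 stood at 15.2 to 16.3 CPM, against at most 0.18 in the other 11 tested. The highest muscle sum was that of normal diet 1, where Myh4, a fast myosin, stood at 46.6 CPM and Ckm, the muscle creatine kinase, at 12.5, against at most 0.963 and 0.51 in the other 14. Total mRNA counts were 13350585 to 20531032 per library.

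Start-site sequences of the members are shown first, because the sets differ there. Promoter windows of 300 bases were available for 61 cytosolic and 69 mitochondrial members (RefSeq, GRCm38.p6). A run of at least 8 C or T letters on the coding strand, with a base within 5 of the annotated start, was present for 24 of 61 cytosolic members (39.3%) and 7 of 69 mitochondrial ones (10.1%), against 10.96% of all 27025 genes, coding and non-coding, with such a window. A gene with more than 1 window counted if any of them held the run or motif sought. Searched on both strands, the ETS core CCGGAAG was found for 40.98% of the cytosolic and 37.7% of the mitochondrial members with a window and for 9.93% of all such genes. The NRF1 motif, GCGCA and GCGC with any 1 base between, was found for 8.2% of cytosolic members, 18.8% of mitochondrial members and 5.19% of all genes with a window. Of the cytosolic genes called below, Rpl35, Rpl7a and Rps9 fell under metformin, and Rpl35 and Rpl41 rose on HFD. Rps27l, another riser on HFD, had the run, while Rps3 and Rpl10a, which also fell under metformin, did not. Below are 4 cytosolic starts as examples (Rpl35, Rpl7a, Rps9 and Rpl41), each from 50 bases before to 20 after the start, with the pyrimidine run in capitals. They lie at chr2:39005112-39005181 on the minus strand (Rpl35), chr2:26910757-26910826 on the plus strand (Rpl7a), chr7:3703991-3704060 on the plus strand (Rps9) and chr10:128549149-128549218 on the minus strand (Rpl41).
Rpl35: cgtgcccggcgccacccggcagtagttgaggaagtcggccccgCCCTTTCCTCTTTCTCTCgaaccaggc
Rpl7a: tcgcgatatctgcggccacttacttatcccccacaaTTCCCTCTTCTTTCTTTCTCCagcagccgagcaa
Rps9: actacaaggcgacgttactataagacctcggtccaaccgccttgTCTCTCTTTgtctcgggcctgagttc
Rpl41: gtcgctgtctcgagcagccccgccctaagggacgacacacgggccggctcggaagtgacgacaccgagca
The first 3 cross the start with a run and the Rpl41 window holds no run of that length at its annotated start. A pair of mitochondrial promoters, from 130 bases before to 20 after the start, shows the other motifs: Mrpl34, which rose on HFD (chr8:71464796-71464945, plus strand, ETS core in capitals), and Mrps9, which fell (chr1:42851103-42851252, plus strand, NRF1 motif as read from the opposite strand in capitals).
Mrpl34: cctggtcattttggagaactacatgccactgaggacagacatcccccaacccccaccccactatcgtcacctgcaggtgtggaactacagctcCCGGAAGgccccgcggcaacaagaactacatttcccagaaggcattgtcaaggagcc
Mrps9: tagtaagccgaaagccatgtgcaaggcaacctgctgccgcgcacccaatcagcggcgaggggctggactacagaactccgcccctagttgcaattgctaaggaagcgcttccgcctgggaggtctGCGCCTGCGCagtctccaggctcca
The pair is an example: of 15 mitochondrial risers on HFD with a window, 6 had the ETS core and 2 the NRF1 motif. Of the 6 that fell, 0 and 3 had them. These counts of few genes were not tested. All these matches are letters in a window and do not show that a factor binds there.

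Levels per transcript length (TPM, counts divided by length and scaled to the same total in each library, mean over 15 libraries) spanned a wide range in the cytosolic set. They ran from 0.174 for Rpl3l to 1508 for Rplp1, an acidic protein of the ribosomal stalk, with a median of 135. Next came Rps4x, the X-linked small-subunit protein, at 787 TPM and Rps14 of the small-subunit platform at 786.5. The lowest levels included genes whose proteins sit once in each ribosome, such as Rps13 at 6.07 TPM and Rps29 at 8.91. Ribosomal protein genes have many processed copies in the genome, and the table lists 161 entries named as their pseudogenes. These entries together held 2896 to 3828 CPM in the 15 libraries, 31.4% to 33.3% of the reads given to pseudogenes and members combined. The sources used here do not give how reads shared by near-identical copies were assigned, which leaves the level of a single cytosolic gene uncertain. The symbols also took in the copies Rpl6l, Rpl32l and Rps4l and the pseudogene entries Mrps36-ps1, Mrpl23-ps1 and Mrpl48-ps. The mitochondrial set was more even, from 7.41 TPM for Mrpl19 to 145 for Mrpl33, with a median of 31.9, and Mrps6 (140) and Mrpl30 (115) next to the top.

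The middle member of both sets varied less between libraries than the middle gene tested. The median coefficient of variation (SD over mean) of TMM-normalised CPM over 15 libraries was 12.3% for the 80 cytosolic members and 14.2% for the 81 mitochondrial members that passed the filter on low counts, against 24.3% over all 17535 genes tested. All genes were not matched to the sets by level. Their 10th percentile was 10.1%, against 9.33% for the cytosolic and 9.21% for the mitochondrial set. The filter removed 3 cytosolic paralogs, described at the end. The steadiest cytosolic members were Rplp0, which anchors the stalk (6.81%), and Rps19 (6.86%), and the steadiest mitochondrial ones Mrpl24 (6.51%) and Mrpl37 (6.77%). At the other end stood Rpl29 (53.7%), Rps13 (33.7%) and Rpl24 (32.6%) in the cytosolic set and Mrps21 (42.6%) and Mrps23 (30.6%) in the mitochondrial set.

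Summed over all members and set against the library's mRNA count, the cytosolic set stood at 6804, 7674, 7400 and 6621 CPM in normal diet 1 to 4. It stood at 7051, 7143, 7563 and 6280 in HFD 1, 2, 3 and unmatched, and at 6629, 6623, 6184 and 6846 in metformin 1, 2, 4 and unmatched. In resveratrol 1 to 3 it was 6146, 6991 and 6282. The groups overlapped in every comparison. Means were 7125 ± 494 (SD, n = 4) on normal diet, 7009 ± 535 (n = 4) on HFD, 6570 ± 277 (n = 4) with metformin and 6473 ± 454 (n = 3) with resveratrol.

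The mitochondrial set summed to 1708, 1634, 1607 and 1646 CPM in normal diet 1 to 4. It summed to 1707, 1707, 1760 and 1691 in HFD 1, 2, 3 and unmatched. With metformin 1, 2, 4 and unmatched gave 1729, 1689, 1752 and 1634, and resveratrol 1 to 3 gave 1674, 1729 and 1658. The ratio of the cytosolic to the mitochondrial sum was 4.33 ± 0.38 (n = 4) on normal diet, 4.08 ± 0.25 (n = 4) on HFD, 3.87 ± 0.27 (n = 4) with metformin and 3.83 ± 0.19 (n = 3) with resveratrol. Here too the groups overlapped, with normal diet libraries from 3.98 to 4.70 and HFD libraries from 3.71 to 4.30. A TMM scale was also computed from all 16 libraries without the low-count filter, unlike that of the tests below. On it the mitochondrial sum averaged 1631 CPM on normal diet (1468 to 1748) and 1821 CPM on HFD (1741 to 1949), still with overlap. The cytosolic sum on that scale averaged 7022 CPM on normal diet and 7445 on HFD, so the order of these means turns with the scale. No test was made of a sum over chosen genes.

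**Figure D1:**
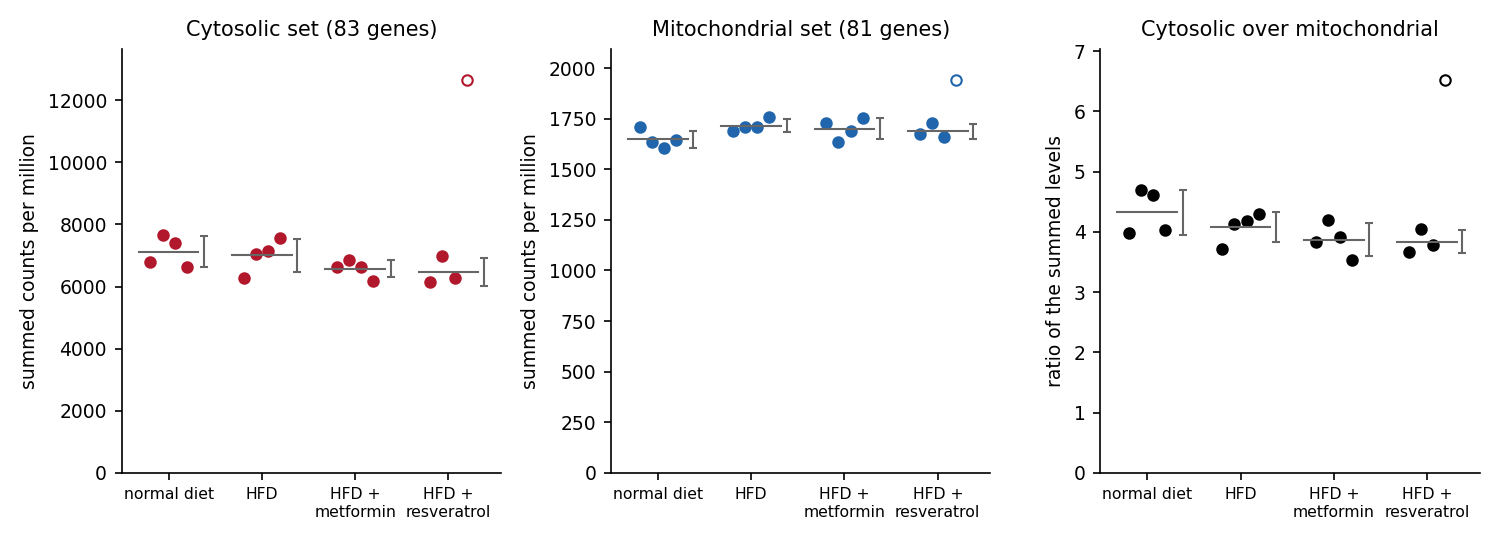
Summed level of the cytosolic set, of the mitochondrial set and their ratio in each library, by group; sums are CPM of the library's mRNA count. Filled points are the 15 libraries used, the open point is resveratrol 4, lines are means and bars SD over filled points. The filled points overlap between groups, while resveratrol 4 stands at 12650 CPM and a ratio of 6.52.

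HFD against normal diet asks what the diet did to the fat pad. Mitochondrial ribosomal protein genes were called in both directions: 18 of 81 rose (13.8% of all genes tested rose) and 7 fell (9.34% of all genes fell), while 3 of 80 cytosolic genes rose and none fell. Called means a Benjamini-Hochberg adjusted p under 0.05 over all 17535 genes in edgeR's quasi-likelihood test, as for each adjusted p given here. At an unadjusted p under 0.05 the cytosolic counts were 6 higher and 6 lower, and DESeq2 called 3 and 3. The median log2 fold change was 0.19 for the mitochondrial and 0.00 for the cytosolic set, against -0.04 over all genes. Every HFD library was above every normal diet library for 28 mitochondrial and 4 cytosolic genes, a pattern seen in 14.1% of all genes. The reverse held for 8 mitochondrial and 10 cytosolic genes and for 13.7% of all genes. In bulk tissue, fewer cells of a type and less RNA per cell cannot be told apart.

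Mrps6, a small-subunit protein and among the most abundant members, was at 42.9, 35.6, 33.5 and 47.5 CPM (TMM-normalised, as for each gene below) in normal diet 1 to 4 and at 70.1, 73.4, 76.3 and 60.6 in HFD 1, 2, 3 and unmatched. The groups did not overlap, and the log2 fold change was 0.81 (SE 0.20, adjusted p = 0.011). Mrpl18, a large-subunit protein, was at 18.2, 18.03, 17.1 and 20.85 CPM on normal diet and at 29.7, 29.7, 31.2 and 24.75 on HFD in the same order. All HFD values were again higher, with a log2 fold change of 0.64 (SE 0.10, adjusted p = 0.00106). The large-subunit protein Mrpl34 was at 16.3, 12.4, 14.2 and 16.9 CPM on normal diet and at 23.1, 22.8, 25.85 and 24.0 on HFD (log2 fold change 0.68, SE 0.14, adjusted p = 0.00453), again without overlap. Mrpl54, also of the large subunit, was at 9.01, 7.04, 5.95 and 6.64 CPM on normal diet and at 9.85, 12.2, 13.01 and 10.7 on HFD (log2 fold change 0.68, SE 0.14, adjusted p = 0.00466). Its lowest HFD library was above its highest normal diet library.

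Among the genes that fell, Mrps9, of the small subunit, was the most even within groups. It was at 38.6, 34.3, 34.8 and 35.3 CPM in normal diet 1 to 4 and at 25.5, 25.5, 26.0 and 29.7 in HFD 1, 2, 3 and unmatched (log2 fold change -0.42, SE 0.07, adjusted p = 0.0018). HFD unmatched lay nearest to normal diet, still below all of it. Mrps35, also of the small subunit, was at 29.95, 23.95, 21.2 and 21.7 CPM on normal diet and at 16.3, 15.9, 18.7 and 16.5 on HFD (log2 fold change -0.52, SE 0.12, adjusted p = 0.00692). Mrpl9, of the large subunit, was at 51.35, 40.6, 42.4 and 45.8 CPM on normal diet and at 31.02, 30.96, 32.5 and 31.99 on HFD (log2 fold change -0.51, SE 0.11, adjusted p = 0.006235). Neither gene's groups overlapped. Mrpl45, which tethers the mitochondrial ribosome to the inner membrane, was at 30.6, 25.7, 28.05 and 32.9 CPM on normal diet and at 23.35, 20.9, 22.9 and 21.9 on HFD (log2 fold change -0.40, SE 0.12, adjusted p = 0.0313), also without overlap.

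By subunit, 13 of 51 mitochondrial large-subunit genes rose and 2 fell, while 5 of 30 small-subunit genes rose and 5 fell. No test of that difference between subunits was made. The other risers included Mrpl12, a stalk protein also known to bind the mitochondrial RNA polymerase (0.48, SE 0.11, adjusted p = 0.00855), and Mrpl33, the most abundant member (0.31, SE 0.09, adjusted p = 0.023). The other members that fell were Mrps31, Mrps5 and Mrps10.

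The 3 cytosolic genes that rose differ in role. Rpl41, whose product is a very short basic peptide, was at 151, 128.5, 158 and 155.5 CPM in normal diet 1 to 4 and at 184, 199, 227 and 175 in HFD 1, 2, 3 and unmatched, with no overlap (log2 fold change 0.40, SE 0.09, adjusted p = 0.00766). Rpl35, at the exit of the peptide tunnel, was at 63.0, 65.0, 72.0 and 64.0 CPM on normal diet and at 80.1, 78.9, 96.6 and 71.5 on HFD (log2 fold change 0.31, SE 0.09, adjusted p = 0.02045). HFD unmatched lay within the normal diet range. Rps27l, a p53-inducible copy of Rps27, was at 40.6, 35.75, 35.8 and 37.1 CPM on normal diet and at 54.0, 41.5, 64.5 and 44 on HFD (log2 fold change 0.45, SE 0.15, adjusted p = 0.0493). HFD 3 and HFD 1 stood highest, and the call passed in 3 of 9 other settings and 5 of 15 that left out 1 library. Rps6, the small-subunit protein phosphorylated downstream of mTORC1, missed the threshold with a log2 fold change of -0.23 (SE 0.08, adjusted p = 0.0531), although all 4 HFD values, 36.03 to 43.8 CPM, were below all normal diet values, 44.8 to 47.7 CPM.

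Beside these counts, 8 of 11 macrophage markers rose on HFD, none of the 11 was at 0 in any library, and their part in the result was not tested. Without HFD unmatched, the library low in those markers, 17 mitochondrial genes rose and 8 fell. Mitochondrial calls numbered 12 without HFD 3, 15 without HFD 2 and 15 without normal diet 2 (8 higher and 7 lower, median 0.13). Cytosolic calls numbered 1 without HFD 3 or any of normal diet 1, 2 and 4, and 5 (3 higher, 2 lower) without HFD 2 or with metformin 2 left out of the shared fit (4 higher, 1 lower). With library size alone as the scale, which moves the median of all genes by -0.08, 14 mitochondrial genes rose and 11 fell, and the cytosolic split turned to 1 higher and 6 lower.

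**Figure D2:**
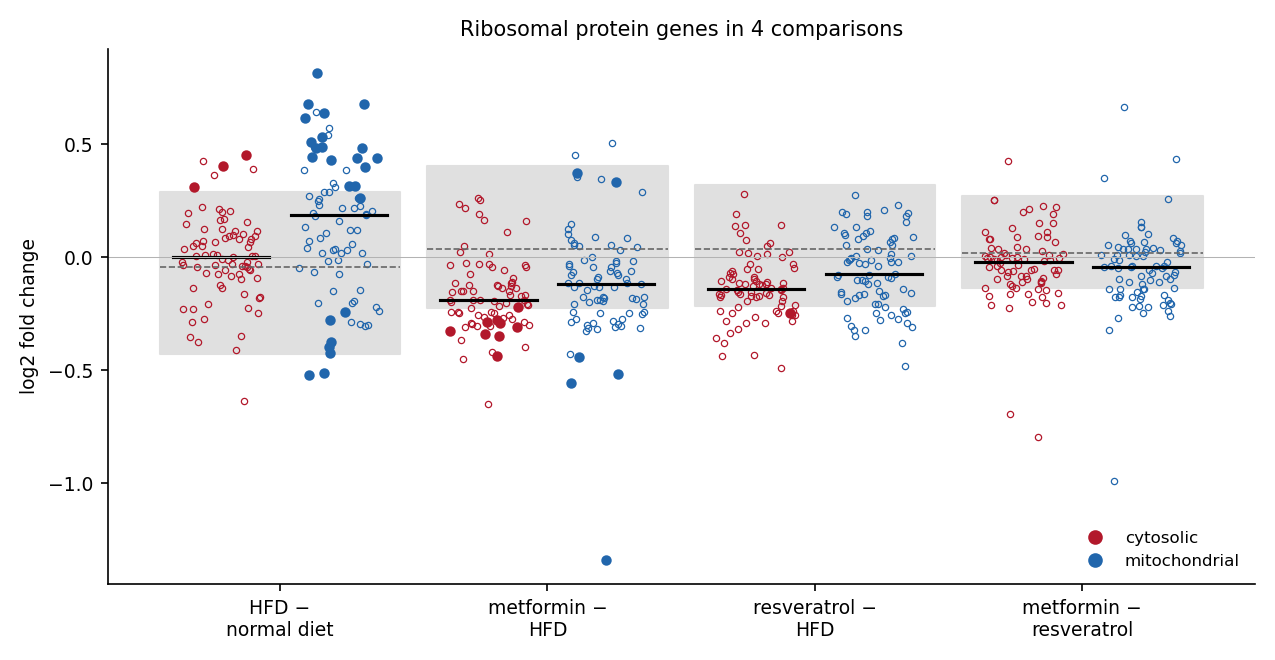
Log2 fold change (vertical axis) of each tested member in 4 comparisons, 80 cytosolic genes in red and 81 mitochondrial genes in blue. Filled points passed the adjusted p of 0.05, black bars are set medians, and the grey band and dashed line are the middle 50% and the median of all 17535 genes. The mitochondrial median lies at 0.19 in the first comparison and the cytosolic median at -0.19 in the second.

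The mitochondrial genes that rose on HFD had shorter mRNAs than those that fell. The length of the most counted transcript was 478 to 2999 nt (median 1114) for the 18 risers and 1515 to 4481 nt (median 2431) for the 7 that fell. Across the 81 mitochondrial genes, length and the log2 fold change on HFD had a Spearman rho of -0.47, against -0.05 across all 17535 genes tested. These are genes of the same libraries, not replicates, and the value is a description. In the cytosolic set, whose lengths run from 371 to 3706 nt, rho was -0.08. Of the 30 mitochondrial genes of up to 1000 nt, 6 rose and none fell, with 26 positive log2 fold changes. Of the 51 longer ones, 12 rose and 7 fell, with 31 positive. The share called higher was thus no larger among the short genes, but other measures differed. All HFD libraries were above all normal diet libraries for 13 of the 30 short and 15 of the 51 longer genes. They were below for 1 and 7. The median log2 fold change was 0.24 for the short and 0.11 for the longer genes. Among all 2281 tested genes of up to 1000 nt, 267 rose and 111 fell, with 1140 positive. The share of small structural RNAs among all reads counted was 6.20% to 8.23% on HFD and 5.22% to 5.95% on normal diet, and its part in the result was not tested.

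**Figure D3:**
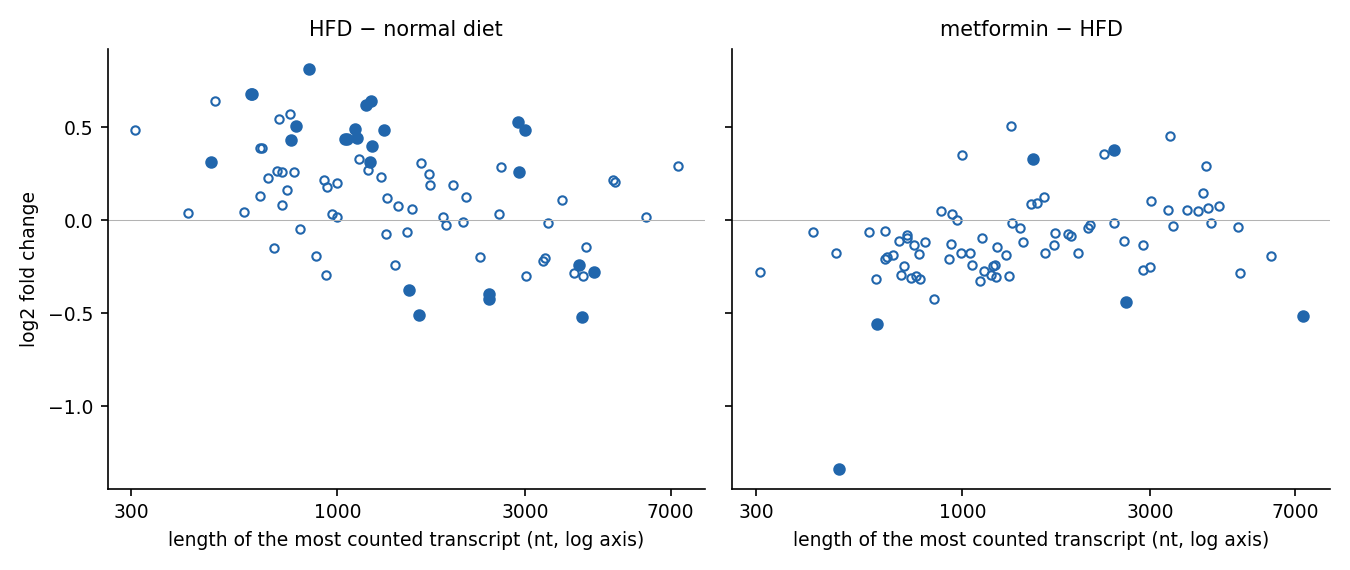
Log2 fold change (vertical axis) of the 81 mitochondrial ribosomal protein genes against the length of their most counted transcript in nt (horizontal log axis), for HFD minus normal diet and for metformin minus HFD. Filled points passed the adjusted p of 0.05. On the left the points fall with length (Spearman rho -0.47) and on the right they rise (0.40); both panels share the HFD libraries.

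Metformin on HFD against HFD asks what the drug changed in mice given HFD. Of 80 cytosolic genes, 9 fell (11.25%, against 7.84% of all genes) and none rose (6.09% of all genes rose), and the other 71 were not called. The median log2 fold change was -0.19, with 69 of 80 values negative, against 0.04 over all genes, of which 8139 of 17535 were negative. Of the mitochondrial set, 4 of 81 genes fell and 2 rose, with a median of -0.12 and 62 values negative. The mitochondrial shares called were 2.47% higher and 4.94% lower, against 6.09% and 7.84% of all genes. At an unadjusted p under 0.05, 29 cytosolic genes were lower and 0 higher, and 15 mitochondrial genes were lower and 5 higher. Among all 17535 genes, 2767 were lower and 3433 higher at that threshold. All metformin libraries were below all HFD libraries for 8 cytosolic and 8 mitochondrial genes, and for 8.74% of all genes. They were above for no cytosolic and 3 mitochondrial genes, and for 8.29% of all genes. The comparison shares the HFD libraries with the one before and with the resveratrol comparison below.

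Rpl35 was at 61.95, 55.3, 61.5 and 63.2 CPM in metformin 1, 2, 4 and unmatched, below each of its HFD values given above (log2 fold change -0.43, SE 0.09, adjusted p = 0.0125). Rpl7a, of the large subunit, was at 63.0, 56.2, 55.35 and 60.4 CPM with metformin and at 75.2, 69.9, 72.8 and 67.1 in HFD 1, 2, 3 and unmatched (log2 fold change -0.28, SE 0.06, adjusted p = 0.014). No library overlapped. Rps3, which lines the mRNA entry channel, was at 227, 186, 208 and 224 CPM with metformin and at 269.5, 266, 308 and 227 on HFD (log2 fold change -0.34, SE 0.09, adjusted p = 0.0355). Here metformin 1 and HFD unmatched had almost the same value. Rps9, of the small subunit, was at 187.6, 158.7, 183.6 and 186 CPM with metformin and at 223, 233, 249.7 and 191 on HFD (log2 fold change -0.32, SE 0.10, adjusted p = 0.0435). The groups were separate, with HFD unmatched nearest to metformin. Rpl10a was at 87.1, 82.6, 83.6 and 99.3 CPM with metformin and at 111, 124, 126 and 87.7 on HFD (log2 fold change -0.35, SE 0.10, adjusted p = 0.0447), so HFD unmatched lay inside the metformin range. Leaving out 1 library at a time, the calls passed in 15 of 15 fits for Rpl35, 9 for Rps3, 5 for Rps9 and 4 for Rpl10a. The other 4 that fell were Rpl34, Rpl19, Rpl4 and Rpl8. Of the 8 of these 9 genes with a promoter window, 6 had the pyrimidine run at the start, as shown above for Rpl35, Rpl7a and Rps9, against 39.3% of the cytosolic set. Of the 6 mitochondrial genes with a window that fell on HFD, 3 had it, against 10.1% of their set. These are counts of few genes and were not tested.

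In the mitochondrial set the values moved both ways. Mrps21, a small-subunit protein, was at 18.8 to 21.7 CPM in the 4 HFD libraries and at 7.56, 10.8, 7.502 and 5.96 in metformin 1, 2, 4 and unmatched (log2 fold change -1.34, SE 0.33, adjusted p = 0.0238). The metformin values lay far below HFD, but normal diet held 7.78, 12.8, 14.75 and 16.3 CPM and resveratrol 19.2, 6.40 and 21.7, so low values were not limited to metformin. Mrpl34, the riser on HFD, was at 17.5, 12.0, 19.1 and 16.4 CPM with metformin, below all HFD libraries (log2 fold change -0.56, SE 0.14, adjusted p = 0.0237). Mrpl17 fell by 0.51 on the log2 scale (SE 0.13, adjusted p = 0.0271) and Mrpl58, a peptidyl-tRNA hydrolase that frees stalled mitochondrial ribosomes, by 0.44 (SE 0.13, adjusted p = 0.0463). With its highest-count transcript only, Mrpl58 had a log2 fold change of -0.08. Mrps9 was at 33.97, 36.3, 32.3 and 35.8 CPM with metformin, above every HFD library (log2 fold change 0.37, SE 0.07, adjusted p = 0.012). Mrps31 was at 17.3, 17.8, 16.1 and 15.5 CPM with metformin and at 13.4, 12.7, 11.96 and 14.97 on HFD, also without overlap (log2 fold change 0.33, SE 0.10, adjusted p = 0.0462). Leaving out 1 library at a time, these calls passed in 15 of 15 fits for Mrps9, 12 each for Mrps21 and Mrpl34, 11 for Mrpl17 and 4 each for Mrps31 and Mrpl58.

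**Figure D4:**
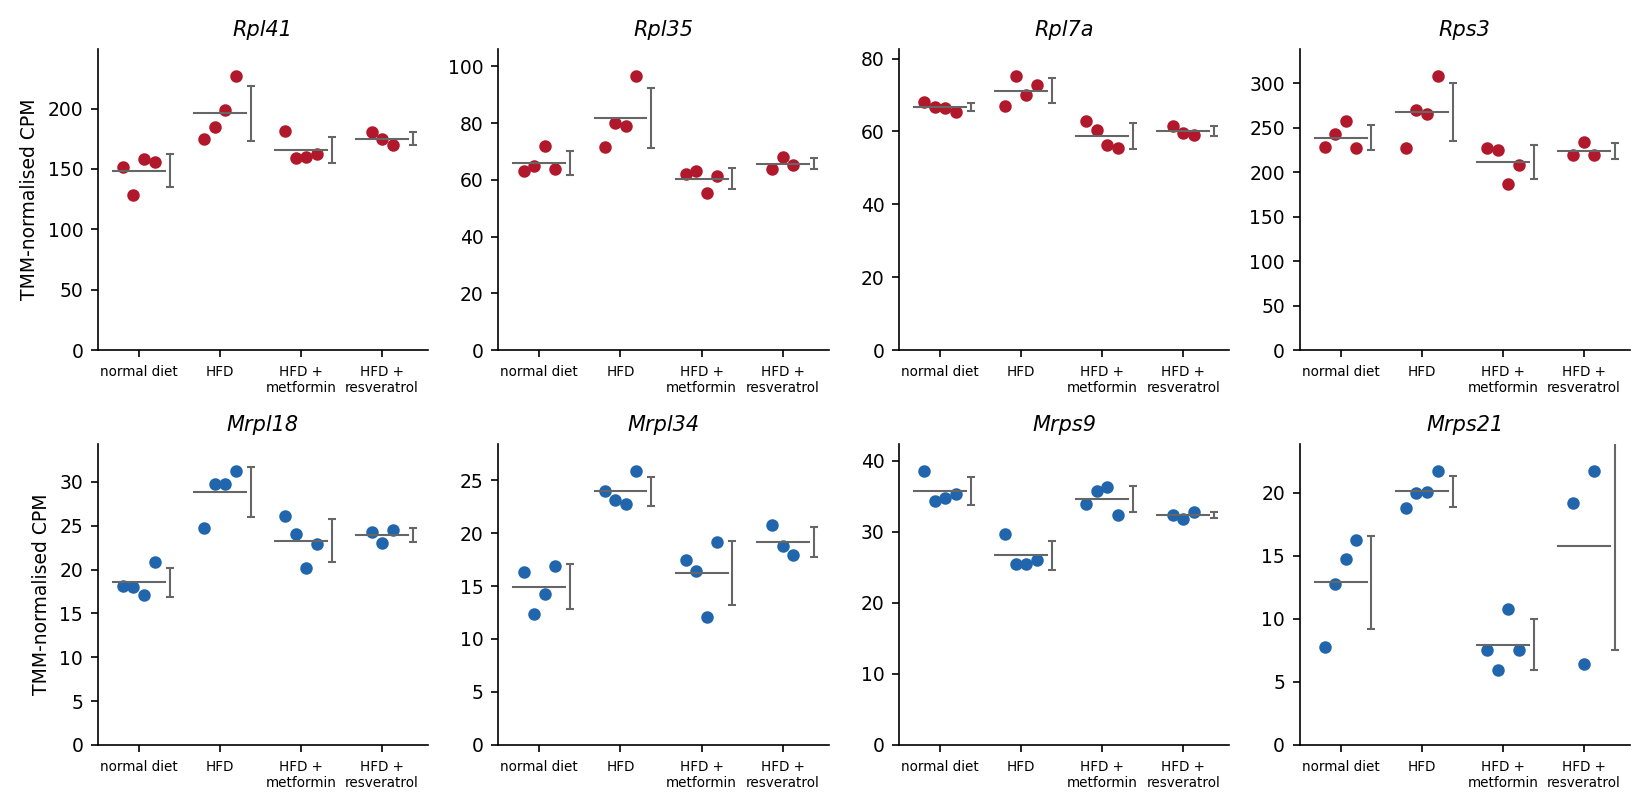
TMM-normalised CPM of 4 cytosolic genes (red) and 4 mitochondrial genes (blue) in each of the 15 libraries by group; lines are means and bars SD. For Mrps9 the 4 HFD values (25.5 to 29.7 CPM) lie below every other library, for Mrpl34 they lie above every other library, and Mrps21 has low values in 3 of the 4 groups.

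Beside these counts, 9 of 11 macrophage markers fell with metformin, to sums of 882 to 1189 CPM, 3 of 4 epididymis markers and 4 of 9 spermatogenic markers rose, and 3 of the 4 metformin libraries were among those rich in ciliated epithelium markers. What these did to the members was not tested. Without HFD unmatched, 20 cytosolic genes fell, and without metformin 1 also 20. Without HFD 1 or HFD 3 it was 1, without HFD 2 or metformin 2 it was 2, without metformin 4 it was 3 with 1 higher, and without normal diet 1 or resveratrol 1, through the shared fit, 5 and 4. Mitochondrial calls numbered 1 without HFD 1 or HFD 3 and 2 without HFD 2. Leaving out the libraries rich in ciliated markers, which leaves metformin 1 alone in its group and takes its spread from the other groups, gave 0 calls in either set, a cytosolic median of -0.06 with 29 of 81 values positive, and a mitochondrial median of 0.01. With library size alone as the scale, 1 cytosolic gene fell and 22 of 80 values were positive.

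Resveratrol on HFD against HFD, with 3 resveratrol libraries, gave 1 call among the members. Of 80 cytosolic genes 1 fell (3.09% of all genes fell, and 4.17% were called in either direction) and none rose (1.09% of all genes rose), and none of the 81 mitochondrial genes was called (at an unadjusted p under 0.05, 1 was higher and 9 lower, and DESeq2 called 1). Median log2 fold changes were -0.14 and -0.07, against 0.04 over all genes, and 65 cytosolic and 52 mitochondrial values were negative. All resveratrol libraries were below all HFD libraries for 9 cytosolic and 12 mitochondrial genes and 12.4% of all genes, and above them for 0 and 2 and 9.15% of all genes. The gene called was Rpl7a, at 61.6, 59.6 and 59.1 CPM in resveratrol 1 to 3, below each HFD library (log2 fold change -0.245, SE 0.06, adjusted p = 0.047). The call passed in 4 of 9 other settings and in 3 of 15 fits that left out 1 library. The next smallest p-values included Rpl35 at 64.0, 67.9 and 65.2 CPM (-0.32, SE 0.09, adjusted p = 0.0716) and Mrps9 at 32.4, 31.9 and 32.75 CPM (0.28, SE 0.08, adjusted p = 0.0591), both outside the HFD range. Mrpl18 (24.2, 23.1 and 24.5 CPM) and Mrpl12 (31.1, 30.6 and 26.6 CPM), risers on HFD, had values of -0.27 (SE 0.11, adjusted p = 0.164) and -0.30 (SE 0.12, adjusted p = 0.165). Beside these, 7 of 11 macrophage markers fell with resveratrol, and their part was not tested. With all 16 libraries Rpl7a was not called (log2 fold change 0.04, adjusted p = 0.916), and the cytosolic median was 0.13.

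Metformin and resveratrol differ in structure as a biguanide and a polyphenol, and were compared directly as 1 pair at the same time point, with no dose given. No member of either set was called, against 0.0114% of all genes. Metformin libraries were all above resveratrol libraries for 1 cytosolic and 2 mitochondrial genes (2.69% of all genes) and all below for 2 and 4 (2.44%). At an unadjusted p under 0.05 there were 5 cytosolic and 5 mitochondrial genes, and DESeq2 called none. Medians were -0.02 and -0.04 (metformin minus resveratrol), and the middle 50% of values ran from -0.11 to 0.04 for cytosolic and from -0.15 to 0.04 for mitochondrial genes. The smallest p-values were those of Mrps21 (-0.99, SE 0.35), Mrps16 (-0.25, SE 0.08), Rps13 (-0.69, SE 0.25), Rpl13a (0.43, SE 0.16), Rpl24 (-0.79, SE 0.34), Rpl36 (-0.22, SE 0.10), Mrpl2 (0.44, SE 0.18) and Mrps34 (-0.27, SE 0.12), each with an adjusted p of 0.709. Rpl24 was at 46.3, 16.45, 12.98 and 23.9 CPM in metformin 1, 2, 4 and unmatched and at 37.4, 43.9 and 48.1 with resveratrol, so that metformin 1 alone lay among the resveratrol values. A p above the threshold does not show that the agents act alike on these genes.

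Genes of the same pathways, from lists chosen by function, add context. Their counts stand against the shares of all genes called: 13.8% rose and 9.34% fell on HFD, 6.09% and 7.84% with metformin, and 1.09% and 3.09% with resveratrol. Of 6 cytosolic ribosomal proteins whose symbols the rule does not take, Rpl36al rose on HFD (0.47, SE 0.14, adjusted p = 0.0259) and Fau, which encodes a small-subunit protein fused to a ubiquitin-like peptide, fell with metformin (-0.35, SE 0.09, adjusted p = 0.0271). Of 22 other TOP-class genes tested, 2 rose and 3 fell on HFD, and 4 fell and none rose with metformin, among them Tpt1, a classic TOP mRNA, from 122 to 162 CPM on HFD to 99.75 to 119 CPM (-0.38, SE 0.09, adjusted p = 0.0241), and Vim (-0.77, SE 0.22, adjusted p = 0.04). Of 40 ribosome biogenesis genes, 2 rose and 8 fell on HFD, with a median log2 fold change of -0.13 over the list. The largest changes among those called were Nhp2 (0.60, SE 0.15, adjusted p = 0.0143), Rrs1 (-0.48, SE 0.15, adjusted p = 0.0376) and Utp4 (-0.47, SE 0.13, adjusted p = 0.0197). Of this list, 2 fell with metformin and 1 with resveratrol, and none rose. Bop1, of the large-subunit processing complex, rose on HFD (0.41, SE 0.09, adjusted p = 0.00604) and fell with metformin (-0.36, SE 0.09, adjusted p = 0.0231) and with resveratrol (-0.44, SE 0.10, adjusted p = 0.0365).

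Among 25 regulators of mTORC1, MYC and LARP1, 2 rose and 5 fell on HFD, none was called with metformin and 1 fell with resveratrol. Deptor, which binds and inhibits mTOR, was at 95.55, 83.2, 78.5 and 90.7 CPM on normal diet and at 188.5, 162, 220 and 181 in HFD 1, 2, 3 and unmatched (1.11, SE 0.14, adjusted p = 0.000457). It fell with resveratrol, to 113.5, 106 and 118 CPM (-0.74, SE 0.15, adjusted p = 0.036). Ddit4, a stress-induced inhibitor of mTORC1, fell on HFD (-1.33, SE 0.27, adjusted p = 0.00455).

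On the mitochondrial side, counts of called genes stand against the same shares of all genes. Of 6 genes listed with the mitochondrial ribosome under other symbols, Gadd45gip1 rose on HFD (0.32, SE 0.10, adjusted p = 0.035). Oxa1l, the inner-membrane insertase and not itself a ribosomal protein, fell (-0.20, SE 0.07, adjusted p = 0.0417). Of 34 genes of mitochondrial translation and ribosome assembly, 2 rose and 3 fell on HFD. Of 17 mitochondrial aminoacyl-tRNA synthetases, none rose and 2 fell on HFD, and 2 rose with metformin, with Nars2 called in each (-0.59, SE 0.12, adjusted p = 0.0049 on HFD; 0.40, SE 0.12, adjusted p = 0.0465 with metformin). Of 14 factors that act on nuclear genes for mitochondria, 1 rose and 4 fell on HFD and 3 rose with metformin. Ppargc1a, which encodes PGC-1α, was at 14.55, 21.7, 12.9 and 8.69 CPM on normal diet and at 4.11, 2.82, 5.43 and 4.83 in HFD 1, 2, 3 and unmatched (-1.75, SE 0.37, adjusted p = 0.00588). It was at 7.77, 15.2, 17.0 and 16.35 CPM in metformin 1, 2, 4 and unmatched, above every HFD library (1.71, SE 0.37, adjusted p = 0.0163). In resveratrol 1 to 3 it was at 8.00, 17.2 and 6.58 CPM. Its 5 highest values, 15.2 to 21.7 CPM, were those of the 5 libraries rich in ciliated epithelium markers, whose part in the rise was not tested.

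The paralogs with a known tissue pattern marked single libraries. Rpl3l, a form of Rpl3 known from striated muscle, had 1096 counts (79.05 CPM) in resveratrol 4 and at most 5 counts in any other library. Skeletal muscle markers did not follow it: their sum there was only 5.48 CPM, lower than in any other library. Rpl10l, which stands in for the X-linked Rpl10 in male germ cells, had 762 counts (49.9 CPM) in metformin 2, 51 in resveratrol 4 and at most 2 elsewhere. Rpl39l, also known from the testis, had 418 counts (27.4 CPM) in metformin 2, 31 in resveratrol 4 and at most 14 elsewhere. Those are the 2 libraries with spermatogenic markers at 2138 and 803 CPM, against at most 32.9 in the others. Rps4l was present in all libraries and was highest in the same pair, at 27.9 CPM in metformin 2 and 40.0 in resveratrol 4 against 11.4 to 21.03 in the rest.

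**Figure D5:**
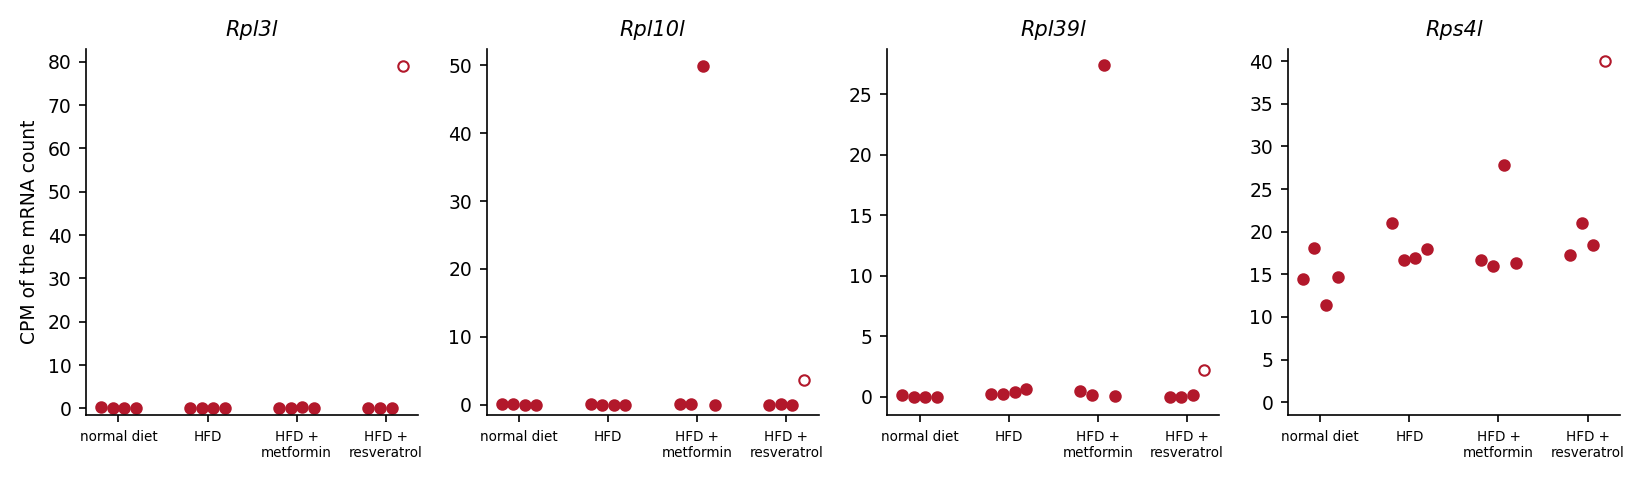
CPM of the library's mRNA count for 4 cytosolic paralogs in all 16 libraries by group. The open point is resveratrol 4, which only the fit of all 16 libraries uses. Rpl3l stands out in resveratrol 4 (79.05 CPM), and Rpl10l and Rpl39l in metformin 2 (49.9 and 27.4 CPM).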

How the data were processed

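RNA of 16 fat samples was sequenced from TruSeq RNA libraries, per the labels' protocols. Per the file headers, the deposited mRNA and lncRNA tables hold raw counts per transcript, with FPKM values computed by the authors beside them in the deposited tables. Per the submitters' processing notes, fastp, HISAT2 and the GRCm38 build were used. For the counting tool, annotation release and strand setting, nothing was found in the sources used here.

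In the mRNA table the header has 43 names for 44 cells, so counts were taken from the last 16 cells, and 5 broken records were rejoined. Column order was checked with the lncRNA table's FPKM and counts. For 14 libraries the implied total differed from the library's own by at most 0.0418%. With any other library's mRNA count in place of its own, the difference was at least 0.489%. A further 18 per-sample columns were not used. No library repeats another of its group: chi-square values over genes were 13.6 to 551 times their degrees of freedom. The lowest were those among HFD 1 to 3 (13.6 to 18.8), against 55.9 to 81.5 between each of these and HFD unmatched.

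Counts of 91879 transcripts were summed by gene identifier. The test was edgeR's (version 4.0.16, under R 4.3.3; filterByExpr, TMM, robust quasi-likelihood fit, group as the only factor, 15 libraries), with Benjamini-Hochberg adjustment over all genes tested and two-sided tests. The SE is the absolute log2 fold change over the square root of F. The script was tested on simulated data. TPM was computed from counts and transcript lengths. DESeq2 1.42.0 was an alternative. Genes are named by rule: per comparison and set, the up to 4 called members with the largest change in each direction, or the smallest p-values where fewer than 4 were called; the 3 highest levels per set; 4 paralogs; and up to 3 called genes per pathway list. Others were named after their values were seen. The members and lists were chosen with earlier results of these data known.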

Additional observations from a re-analysis of the deposited data

Results flagged for a closer look

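Resveratrol 4, the library left out of the main comparisons, stood above every normal diet library in both sums. Its cytosolic set summed to 12650 CPM against 6621 to 7674 on normal diet, and its mitochondrial set to 1941 CPM against 1607 to 1708. Against the mean of resveratrol 1 to 3, 79 of 80 cytosolic genes with at least 30 counts in those 3 libraries together were higher (median ratio 1.91) and 50 of 81 mitochondrial genes (median ratio 1.09), beside a median ratio of 1.04 over 16151 genes. It was above all 15 other libraries for 88.8% of the cytosolic genes, 30 of 81 mitochondrial genes and 27.8% of all genes. Among these genes, Rps26 had the highest ratio, at 169 CPM against 27.4, and Mrpl13 the lowest, at 16.5 CPM against 33.25. Rpl3l, Rpl10l and Rpl39l had fewer counts in resveratrol 1 to 3 and are not in this ranking. Rpl3l reached 79.05 CPM there against at most 0.225 on normal diet.

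In 4 of 108 sets of 4 libraries examined, 1 library lay far from the other 3, where chance gives about 1 in 20. They were Mrps9 in HFD unmatched (29.7 CPM against 25.5 to 26.0), Rps9 in metformin 2 (158.7 CPM against 183.6 to 187.6), Rpl13a in metformin 2 (132 CPM against 210.0 to 214.0) and Rpl36 in metformin 1 (23.9 CPM against 18.5 to 19.3).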

How the results depend on the processing

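All 16 libraries lowered the calls: 0 cytosolic and 10 mitochondrial on HFD, 0 and 0 with metformin, and 0 cytosolic with resveratrol, whose cytosolic median turned to 0.13 (Rpl7a 0.0356); against resveratrol the metformin median was -0.30. DESeq2 called 6 cytosolic genes on HFD, 20 with metformin and 4 with resveratrol, plus 1 mitochondrial. Library size alone, which moves the all-gene median by 0.11 under metformin, gave 7, 1 and 0 cytosolic calls and metformin medians of -0.0819 and -0.0138; relative to all genes these were -0.23 and -0.16, against -0.22 and -0.15 with TMM. Without a low-count filter no cytosolic gene was called with resveratrol. With the highest-count transcript only, metformin gave 2 and 2 calls and resveratrol 0. Without libraries rich in ciliated markers, metformin gave 0 and 0 (medians -0.0626 and 0.008), resveratrol 0, and the agents differed by medians of 0.0851 and 0.0617. Without both unmatched libraries, chosen after seeing the data, cytosolic calls were 6, 16 and 6, plus 1 mitochondrial with resveratrol. The mitochondrial mean on HFD was 1821 CPM with TMM sizes and 1796 with DESeq2 size factors, against 1716.

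Leaving out 1 library gave, on HFD, 1 to 5 cytosolic and 12 to 27 mitochondrial calls (medians -0.06 to 0.02 and 0.13 to 0.22). With metformin it gave 1 to 20 and 1 to 9 calls (medians -0.23 to -0.12 and -0.15 to -0.09), fewest without HFD 1 or HFD 3. With resveratrol it gave 0 to 5 and 0 to 1 calls (medians -0.18 to -0.08 and -0.08 to -0.02). Between the agents it gave 0 calls (medians -0.07 to -0.01 and -0.10 to -0.02). Of the 22 calls that the naming rule took as the largest per comparison, set and direction, 6 passed in all 24 alternatives. They were those of Mrps6, Mrpl34, Mrpl54, Mrpl18, Mrpl9 and Mrps9 on HFD. Other calls, such as those of Rpl7a with metformin and Mrpl12 on HFD, are not among the 22. Arms left with 1 sample are assumed to vary like the others. No paired analysis was possible because the replicate numbers only follow accession order. Depth limits Rpl3l, Rpl10l and Rpl39l, which stood at or under a few counts in most libraries.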

Other observations

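Rpl29, a large-subunit protein of the cytosolic ribosome, was picked out after its values were seen, because it fell into 2 levels that do not follow the groups. It was at 49.2 to 62.65 CPM in normal diet 1 (53.3) and 3 (61.8), HFD 1 (62.65), metformin 2 (49.2) and unmatched (55.35) and resveratrol 3 (60.7). In the other 9 libraries it was at 18.2 to 23.8 CPM, so every group held both levels and no value lay between. It passed no test between groups (adjusted p from 0.753 to 0.975), and its coefficient of variation, 53.7%, was the highest of all 161 tested members.

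Its most counted transcripts, which hold 57.65%, 25.99% and 14.99% of its counts, differed with the level. In HFD 1 they were at 35.1, 16.8 and 8.72 CPM, and in HFD 2 at 11.1, 4.91 and 3.07 CPM. The cause was not tested.

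Rpl24 lost counts of its main transcript in some libraries. That transcript, of 677 nt, was at 29.75, 6.95, 0.36 and 17.1 CPM in metformin 1, 2, 4 and unmatched, against 38.2 to 45.9 on normal diet. Its transcript of 639 nt was at 10.4, 3.93, 7.82 and 4.48 CPM in the same order and at 0.93 to 5.27 on normal diet. The total of the gene was 12.98 and 16.45 TMM-normalised CPM in metformin 4 and metformin 2 against 44.97 to 53.1 on normal diet. HFD 1 and 2 also had low values of the main transcript, 11.9 and 15.97 CPM, against 39.99 in HFD 3 and 37.9 in HFD unmatched. The transcript of 639 nt was at 12.2 and 10.3 CPM in HFD 1 and 2, against 2.82 in both HFD 3 and HFD unmatched. The split of reads between transcripts of a gene comes from a counting step that is not given in the sources used here.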
